A study of Homo sapiens with 9 samples.

Results

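The genes described here are 57 regulators and effectors of the cell cycle among the 60708 genes counted in 9 RNA-sequencing libraries. They were chosen by name, with earlier results of these data known, and comprise 3 D cyclins, 8 other G1 and S cyclins, cyclin-dependent kinases (CDKs) and CDC25A, 6 CDK inhibitors and related regulators (with *CDKN3* and *MDM2*), 3 members of the RB family, 7 E2F factors, 11 DNA replication genes and 19 mitosis genes. Each was found once by its symbol, and all 57 passed the filter on low counts in every comparison with WT. Between the clones 56 passed, and *CCNA1* did not.

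All samples were labelled MDA-MB-231, a human line derived from a triple-negative breast cancer of basal type. The 3 WT libraries came from cells with intact *SNAI1*, which encodes a zinc-finger repressor that drives epithelial-mesenchymal transition. The 6 libraries labelled *SNAI1*-KO came from CS16 and CS19, with 3 libraries each, and each of these is described as a single clone obtained after CRISPR/Cas9 targeting of *SNAI1* in this line. All cells were untreated and grew in DMEM with serum, so no group was synchronised, and the share of cells in each phase was not measured by these libraries. The labels number the replicates but do not say whether they came from separate cultures, so the p-values measure the spread between these libraries, which may be technical.

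Progress through G1 is set by D cyclins, which bind CDK4 or CDK6 and phosphorylate RB proteins. Phosphorylated RB releases E2F factors, and E2F factors switch on genes for cyclin E, nucleotide supply and the replication machinery. Later in the cycle, cyclin A and cyclin B with CDK1 and the mitotic kinases take over, and their genes are transcribed mainly in G2 and M. In a bulk RNA sample of cycling cells, a lower level of a phase-specific transcript can come from fewer cells in that phase or from less RNA per cell, and these cannot be told apart.

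The libraries held 19527195 to 28627777 read pairs counted on genes. Levels are given as CPM, counts set to a common library size with TMM factors, and levels of different genes are compared as TPM, which also correct for exon length. Differences were tested in edgeR by its quasi-likelihood method, and adjusted p-values are Benjamini-Hochberg values over all genes tested. A gene is called changed below an adjusted p of 0.05, and differentially expressed when its log2 fold change was also at least 2 in either direction.

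The labels were checked first. *SNAI1* measured 0.766, 2.01 and 1.03 CPM in WT-1, WT-2 and WT-3. It measured 1.30, 1.96 and 2.01 CPM in the 3 CS16 libraries, and 2.57, 4.22 and 3.21 CPM in the 3 CS19 libraries. The libraries labelled *SNAI1*-KO were therefore not lower for the targeted gene, with a log2 fold change of 0.89 ± 0.42 (SE) and an adjusted p of 0.084, and they were higher without WT-2, by 1.41 (adjusted p = 0.015). Gene counts do not show whether the transcript was intact. Of 14 markers of mesenchymal basal breast lines, all 14 were changed and lower in the libraries labelled *SNAI1*-KO. Their summed level was 8226 to 8970 CPM in WT, with *AXL* the most abundant in each, against 557 to 593 CPM in CS16 and 499 to 546 CPM in CS19, with *VIM* the most abundant. *CD44*, which encodes the hyaluronan receptor that marks this line, had 548 to 731 CPM in WT and at most 0.0899 CPM in the 6 others.

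Genes at 9p21 went the other way. *CDKN2A*, which encodes the CDK4 and CDK6 inhibitor p16, *CDKN2B*, which encodes the related inhibitor p15, and their neighbour *MTAP* had 0 counts in all 3 WT libraries. Set against a floor of 3 counts per WT library, *CDKN2A* was at least 380-fold higher in the clones, *CDKN2B* at least 80.9-fold and *MTAP* at least 711-fold. *CDKN2A* there measured 60.0, 54.3 and 58.5 CPM in CS16 and 52.1, 63.0 and 53.8 CPM in CS19. *NEFL*, a neuronal filament gene, and *SALL1*, a kidney developmental gene, were likewise at 0 in WT and at least 707-fold and 130-fold higher. Of the 8 neuronal markers 3 rose and 1 fell among 4 tested, and their summed level was 10.1 to 11.9 CPM in WT, 165 to 178 CPM in CS16 and 133 to 134 CPM in CS19. Of the 10 embryonic kidney markers 7 rose and 2 fell among 9 tested, and their sum was 72.5 to 104 CPM in WT, 137 to 143 CPM in CS16 and 133 to 158 CPM in CS19, with *OSR1* and *PAX8* at the floor in both clones. Of the 12 mammary luminal markers 4 rose and 5 fell among 9 tested, and they summed to 449 to 709 CPM in WT, 201 to 231 CPM in CS16 and 211 to 240 CPM in CS19, with *TFF1* at 0 in every library of both clones. Of the 6 haematopoietic markers 1 rose and 1 fell among 2 tested, and they summed to at most 6.44 CPM in any library. Whether the clones derive from the WT cells sequenced here was not tested, so a difference between the clones and WT below cannot be told apart from a difference in the origin of the cells. Each direction below is between libraries so labelled.

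One WT library stood apart. The chi-square per degree of freedom between replicates was 188 for WT-1 with WT-2 and 230.2 for WT-2 with WT-3, against 14.6 for WT-1 with WT-3. The share of counts on mitochondrial genes was 2.40% in WT-2 and 0.338% to 0.795% in the other 8 libraries. Across 19622 genes, the log2 ratio of WT-2 to the mean of the other WT libraries increased with the GC content of the exons, with a Spearman correlation of 0.66, and over the 57 cell cycle genes the correlation was 0.73. These correlations are across genes, which are not independent replicates. *CDKN3*, *CDK1*, *MAD2L1*, *CCNE2* and *CCNB1* lay lowest in WT-2, by 2.10, 1.90, 1.81, 1.35 and 1.25 on the log2 scale, while *CDT1*, *MKI67* and *CDC25B* lay highest. Results are therefore given with and without WT-2. Among the other libraries, CS19-1 lay below the mean of the other CS19 libraries for 55 of 57 cell cycle genes and for 64.5% of all genes, with medians of −0.18 and −0.07 on the log2 scale.

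**Figure D1:**
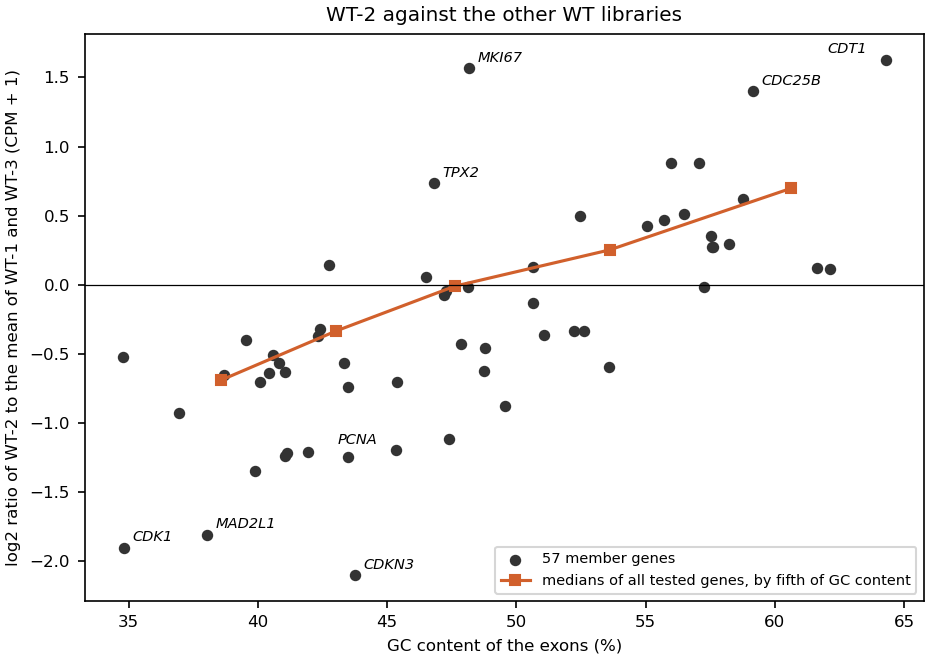
Log2 ratio of WT-2 to the mean of WT-1 and WT-3 (CPM + 1) against the GC content of each gene's exons in percent, 1 point per cell cycle gene. Squares are medians of all tested genes in bins of GC content, which climb from −0.69 to 0.70.

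With WT-2, 35 of the 57 genes changed between WT and both clones, 17 higher and 18 lower, beside 63.7% of all 19631 genes tested (31.1% higher and 32.6% lower). A share of 61.4% among the cell cycle genes was thus close to the background. Of them 7 were differentially expressed, beside 26.9% of all genes, namely *CCND2* higher and *CCND1*, *CCND3*, *CCNA1*, *CDK6*, *CDKN2D* and *MKI67* lower. Here and in the counts for each clone *CCNA1* is included although it passed the filter on low counts only through WT, so its call is no support. Without WT-2, 46 changed, 20 higher and 26 lower, beside 67.2% of all genes (34.0% higher and 33.2% lower), and 5 were differentially expressed, beside 25.9%. Each of the 35 changed in the same direction without WT-2. The 11 added were *CDT1*, *E2F4* and *PLK1*, which were higher, and *CCNB1*, *CCNE2*, *CDK1*, *CDKN3*, *CENPE*, *KIF11*, *RB1* and *RRM2*, which were lower.

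Each clone was also set against the same WT libraries, so these comparisons share their controls. In CS16, 28 of 57 changed, 14 in each direction, beside 55.6% of all genes tested (27.0% higher and 28.6% lower), and 6 were differentially expressed, beside 27.1%. Without WT-2, 48 changed, 21 higher and 27 lower, beside 72.7% (36.4% higher and 36.3% lower). In CS19, 29 changed, 16 higher and 13 lower, beside 52.9% (26.3% higher and 26.6% lower), and 7 were differentially expressed, beside 26.4%. Without WT-2, 49 changed, 22 higher and 27 lower, beside 71.2% (36.4% higher and 34.8% lower). With WT-2, *CDC6*, *GMNN*, *MCM3*, *AURKA* and *BUB1* passed the test over both clones but in neither clone by itself. Without WT-2 they passed in each. Between CS16 and CS19, a comparison that does not use WT, 16 of 56 changed, 9 higher in CS16 and 7 higher in CS19, beside 27.4% of all genes tested (14.7% higher in CS16 and 12.7% lower). There 1 cell cycle gene, *CCND1*, was differentially expressed, beside 1.13% of all genes. With the GC trend of each library removed, 42 changed over both clones, beside 68.3% of all genes. In that setting 38 changed in CS16, 40 in CS19 and 22 between the clones, beside 65.0%, 62.7% and 28.6%.

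**Figure D2:**
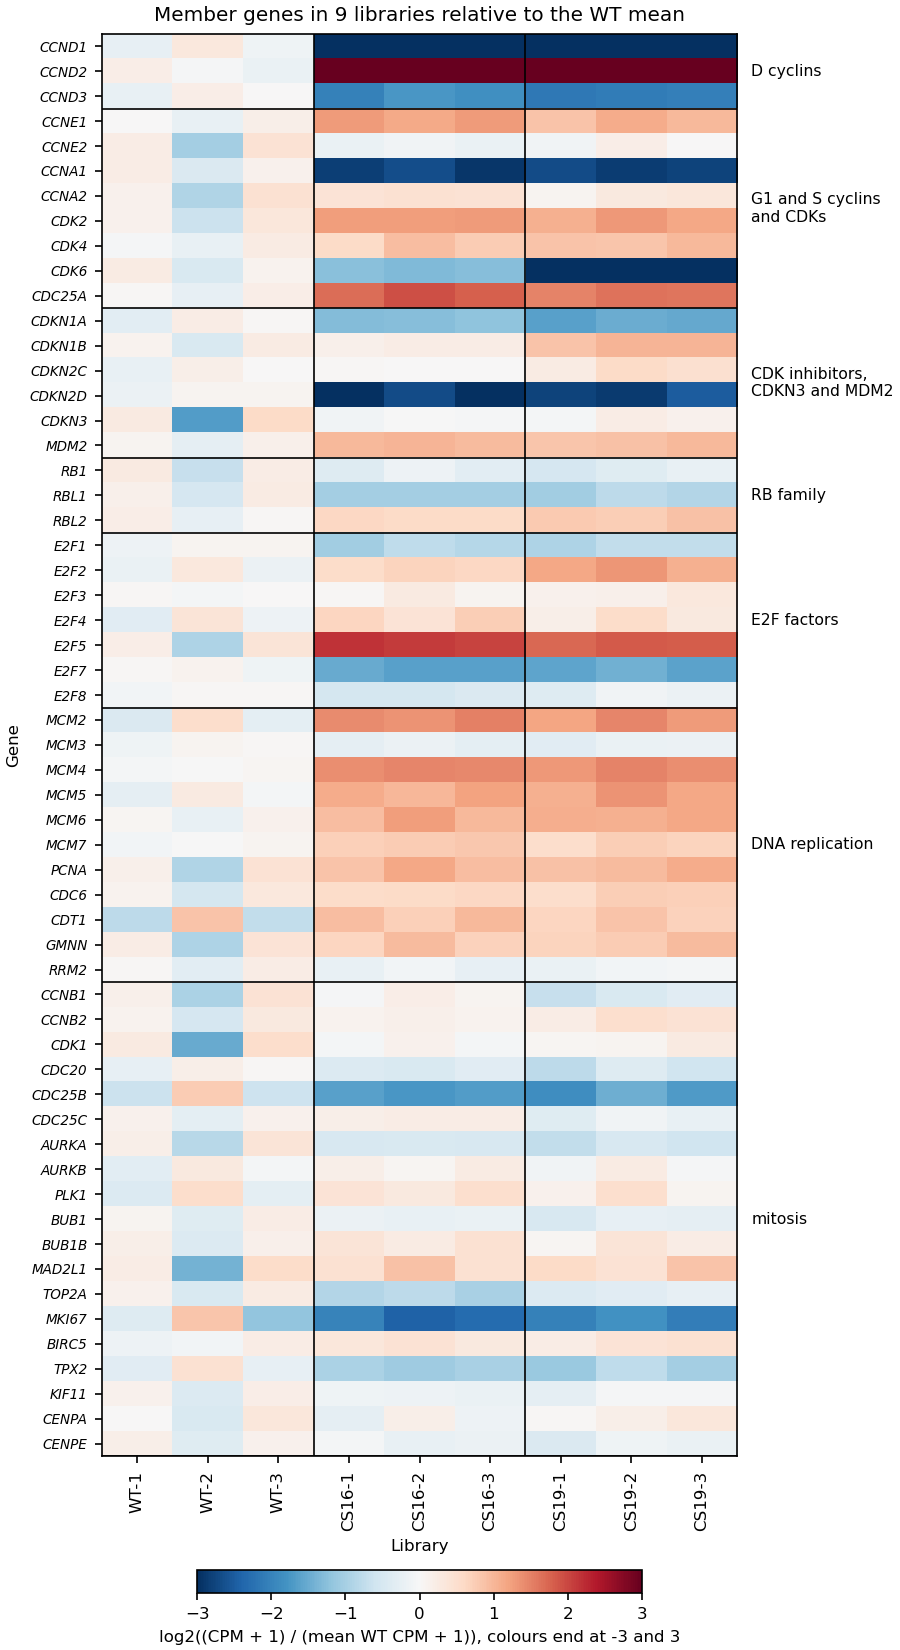
Log2 of (CPM + 1) over the mean WT CPM + 1 for the 57 cell cycle genes (rows, by role) in the 9 libraries (columns), with red above and blue below the WT mean and colours ending at −3 and 3. *CCND1*, *CCNA1* and *CDKN2D* are blue and *CCND2* is red in all 6 libraries of the clones, *CDK6* is bluer in CS19 than in CS16, and WT-2 differs from WT-1 and WT-3 in many rows.

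The 3 D cyclin genes moved in different directions. *CCND1* encodes cyclin D1, the usual D cyclin of epithelial cancers, and lies at chr11:69641156-69654474 on the plus strand of GRCh38. It measured 678, 995 and 734 CPM in the WT libraries. In CS16 it measured 97.5, 89.4 and 87.7 CPM, and in CS19 11.8, 12.1 and 10.53 CPM. The 3 groups did not overlap, with WT highest and CS19 lowest. Against WT the log2 fold change of CS16 was −3.22 ± 0.23 (SE) and that of CS19 −6.20 ± 0.28 (adjusted p = 3.16e-05 and 5.1e-06), and −4.08 ± 0.72 over both clones (adjusted p = 0.000405). Between the clones it was 2.99 ± 0.09 higher in CS16 on the log2 scale, with an adjusted p of 2.38e-10.

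*CCND2* encodes cyclin D2 and lies at chr12:4269771-4305353 on the plus strand. It was near the lower end of the range in WT, with 3.54, 2.85 and 2.41 CPM. In CS16 it measured 167, 169 and 158 CPM, and in CS19 64.0, 70.7 and 72.7 CPM. All 6 libraries of the clones lay above WT, and CS16 lay above CS19 without overlap. Against WT, CS16 had a log2 fold change of 5.72 ± 0.23 and CS19 of 4.48 ± 0.23 (adjusted p = 5.2e-06 and 7.35e-06). Between the clones it was 1.24 ± 0.06, with an adjusted p of 2.17e-08. Of its exon bases 12.5% are shared with other genes, among them the antisense gene *CCND2-AS1*, and of those of *CCND1* 10.4% with *LTO1* on the other strand; since strand was not used in counting, pairs on those bases cannot be assigned.

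*CCND3* encodes cyclin D3 and lies at chr6:41934934-42050357 on the minus strand. WT measured 129, 172 and 151 CPM, CS16 36.4, 44.0 and 41.3 CPM, and CS19 33.3, 34.5 and 35.9 CPM. WT lay above both clones, and the ranges of CS16 and CS19 adjoined without overlap. The log2 fold change over both clones was −2.12 ± 0.14 (adjusted p = 1.46e-07), and −1.99 without WT-2, which is just inside the fold cut-off of 2. The difference between the clones, 0.22 ± 0.08 on the log2 scale, did not pass the test (adjusted p = 0.062).

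**Figure D3:**
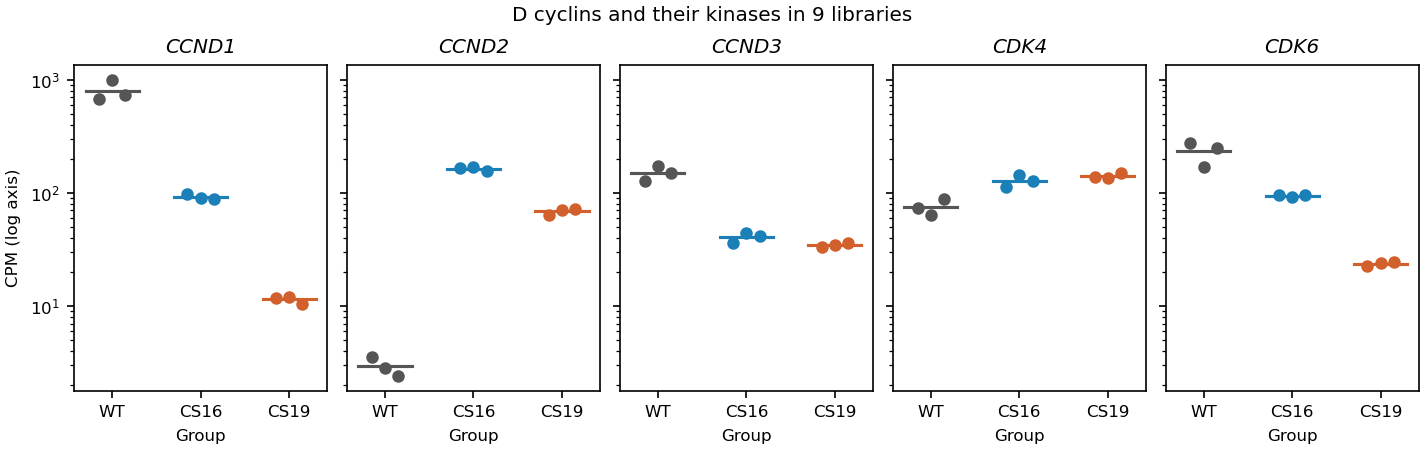
CPM (log axis) of the 3 D cyclin genes, *CDK4* and *CDK6* in WT, CS16 and CS19, with 1 point per library and a bar at the mean of 3. *CCND1* steps down from WT to CS16 to CS19, *CCND2* is lowest in WT and highest in CS16, and *CDK6* steps down as *CCND1* does.

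On the TPM scale, which allows levels of the D cyclins to be compared with each other, *CCND1* was 577 ± 178 TPM (SD, n = 3) in WT and made up 86.3% of the summed D cyclin level, with *CCND3* at 13.5% and *CCND2* at 0.195%. In CS16 the leading level was shared, with 41.0% *CCND1*, 43.9% *CCND2* and 15.04% *CCND3*. In CS19 *CCND2* led with 50.7%, ahead of *CCND3* with 35.2% and *CCND1* with 14.2%. In WT the lowest and highest shares of *CCND1* were 85.3% and 87.4%, in CS16 39.5% and 42.9%, and in CS19 12.6% and 15.3%. The sum of the 3 levels was 667 ± 197 TPM in WT, 143 ± 19.9 TPM in CS16 and 50.6 ± 4.92 TPM in CS19. The rise of *CCND2* thus covered a small part of the level by which *CCND1* and *CCND3* were lower.

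The kinases that D cyclins bind also diverged. *CDK6* measured 278, 169 and 251 CPM in WT, 96.5, 92.5 and 95.03 CPM in CS16, and 22.4, 24.1 and 24.4 CPM in CS19. The 3 groups did not overlap. Against WT, CS16 had a log2 fold change of −1.37 ± 0.21 and CS19 of −3.36 ± 0.23 (adjusted p = 0.00107 and 2.09e-05), and CS16 exceeded CS19 by 1.99 ± 0.07 (adjusted p = 6.02e-10). *CDK4* was higher in the clones, with 75.4 ± 12.7 CPM (SD, n = 3) in WT, 129 ± 15.5 in CS16 and 141 ± 7.52 in CS19, and a log2 fold change of 0.73 ± 0.15 (SE, adjusted p = 0.000979). However, 44.3% of the exon bases of *CDK4* are shared with *TSPAN31* on the other strand, and its counts are uncertain to that extent. In TPM, *CDK6* made up 43.6% of the summed level of the 2 kinases in WT, 15.8% in CS16 and 4.08% in CS19. Without the correction for exon length, on the CPM scale, these shares were 75.2%, 42.5% and 14.4%, so that *CDK6* and not *CDK4* had the larger part in WT, while the order of the groups was the same.

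Among the G1 and S cyclins, kinases and CDC25A, 4 of 8 rose, 2 fell and 2 did not pass the test over both clones, with a median log2 fold change of 0.48 beside −0.004 for all genes tested, of which 31.1% were higher and 32.6% lower. Without WT-2, 4 rose and 3 fell, beside 34.0% and 33.2%, with a median of 0.29. *CCNA1*, which encodes the germline-enriched cyclin A1, measured 8.13, 4.85 and 7.58 CPM in WT. In CS16 it measured 0.100, 0.245 and 0.0409 CPM and in CS19 0.226, 0.0899 and 0.137 CPM, all near the floor. It passed the filter only through WT, with 416 counts in the 3 WT libraries against 19 in the 6 others, a 50.4-fold ratio of the pooled counts, each over the pooled library sizes (95% interval of 31.8 to 84.5 from counting error only). *CDC25A*, the phosphatase that activates CDK2, measured 68.0, 55.9 and 76.3 CPM in WT, 214, 257 and 233 CPM in CS16, and 189, 209 and 206 CPM in CS19. All libraries of the clones lay above WT, and its log2 fold change was 1.60 ± 0.15 (adjusted p = 2.92e-06). *CDK2* itself rose by 1.13 ± 0.19 and its partner *CCNE1* by 1.04 ± 0.16 (adjusted p = 0.000295 and 0.00013). *CCNA2* and *CCNE2* did not pass the test, with values of 0.24 and −0.16, and *CCNE2* was −0.49 without WT-2 (adjusted p = 0.00429). For *CCNE2*, 37.1% of exon bases are shared with other genes, and for *CDK2* 16.8%.

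Of the CDK inhibitors, *CDKN3* and *MDM2*, 1 of 6 rose, 2 fell and 3 did not pass the test, beside 31.1% of all genes higher and 32.6% lower. *CDKN2D*, which encodes the CDK4 and CDK6 inhibitor p19, measured 28.6, 34.1 and 34.4 CPM in WT, 2.01, 4.22 and 2.82 CPM in CS16, and 3.84, 3.55 and 4.92 CPM in CS19. WT lay above all 6 others, and the log2 fold change was −3.29 ± 0.24 (adjusted p = 2.69e-07). *CDKN1A*, which encodes the CDK inhibitor p21, measured 56.2, 82.2 and 72.0 CPM in WT, 27.8, 28.2 and 29.8 CPM in CS16, and 21.98, 24.3 and 23.4 CPM in CS19. It too was lower in every library of the clones, by −1.55 ± 0.16 (adjusted p = 5.66e-06). *MDM2*, which encodes a ubiquitin ligase, rose by 0.84 ± 0.13 (adjusted p = 0.000159).

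*CDKN1B*, which encodes p27, separated the clones. It measured 50.1, 33.7 and 55.4 CPM in WT, 51.8, 54.2 and 54.1 CPM in CS16, and 84.6, 95.1 and 94.7 CPM in CS19. CS19 lay above the other groups, while CS16 lay within the range of WT. CS16 was −0.79 ± 0.06 against CS19 on the log2 scale (adjusted p = 1.54e-06). *CDKN2C*, which encodes p18, was also higher in CS19, by −0.44 ± 0.07 for CS16 against CS19 (adjusted p = 0.000479). When WT, CS16 and CS19 were fitted together, the call of *CDKN2C* was lost and *CDKN1B* was called.

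In the RB family, *RBL1*, which encodes the pocket protein p107, measured 127, 79.3 and 133 CPM in WT, 55.1, 55.6 and 55.0 CPM in CS16, and 54.3, 64.8 and 61.2 CPM in CS19. *RBL2*, which encodes p130, the pocket protein of resting cells, measured 39.1, 28.4 and 34.9 CPM in WT, 53.2, 51.6 and 51.3 CPM in CS16, and 59.1, 58.0 and 63.9 CPM in CS19. Both were separated from WT without overlap and in opposite directions, by −1.08 ± 0.15 and 0.61 ± 0.14 (adjusted p = 8.39e-05 and 0.00284). For *RBL2*, 16.4% of exon bases are shared with other genes. *RB1* had a log2 fold change of −0.42 ± 0.19, which did not pass the test (adjusted p = 0.0649), and of −0.67 without WT-2, which did (adjusted p = 7.34e-05).

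Of the E2F factors, 2 of 7 rose, 3 fell and 2 did not pass the test, which is near the 31.1% of all genes higher and 32.6% lower. *E2F1*, an activator, measured 121, 143 and 143 CPM in WT, 65.7, 80.0 and 74.1 CPM in CS16, and 70.6, 80.9 and 80.6 CPM in CS19. *E2F7*, an atypical repressor, measured 138, 145 and 123 CPM in WT, 46.8, 42.9 and 42.9 CPM in CS16, and 44.8, 49.0 and 43.8 CPM in CS19. WT lay above the clones for both, by −0.96 ± 0.12 for *E2F1* (adjusted p = 3.72e-05) and −1.70 ± 0.12 for *E2F7* (adjusted p = 1.8e-07). *E2F5*, which encodes a repressor that binds p130, measured 11.5, 4.75 and 13.3 CPM in WT, 47.5, 45.7 and 43.3 CPM in CS16, and 34.9, 37.7 and 37.0 CPM in CS19. It was the E2F gene with the largest rise, at 1.95 ± 0.28 over both clones (adjusted p = 8.67e-05) and 1.63 without WT-2. Of the exon bases of *E2F5* 18.8% are shared with genes on the other strand. *E2F2*, another activator, rose by 0.85 ± 0.23 (adjusted p = 0.00756) and was higher in CS19 than in CS16, with a log2 fold change of −0.60 ± 0.09 for CS16 against CS19 (adjusted p = 0.000169). That call between the clones was lost when WT, CS16 and CS19 were fitted together. *E2F8* fell by 0.47 on the log2 scale (adjusted p = 0.0124), while *E2F3* and *E2F4* had log2 fold changes of 0.06 and 0.37 that did not pass, and that of *E2F4* was 0.63 without WT-2 (adjusted p = 0.00285).

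Most replication genes were higher in the clones. Over both clones 8 of 11 rose, 1 fell and 2 did not pass the test, with a median log2 fold change of 0.70, beside 31.1% of all genes tested higher, 32.6% lower and a median of −0.004. Without WT-2, 9 rose and 2 fell, beside 34.0% and 33.2%, with a median of 0.60. Against WT, 6 of the 11 rose in CS16 and 6 in CS19, beside 27.0% and 26.3% of all genes. Of these, the calls of *PCNA* in CS16 and in CS19 and of *MCM7* in CS19 were lost on leaving out any library of that clone. Without WT-2, 9 rose and 2 fell in CS16, beside 36.4% of all genes higher and 36.3% lower. In CS19 likewise 9 rose and 2 fell without WT-2, beside 36.4% and 34.8%. *MCM4*, a subunit of the helicase that opens replication origins, measured 231, 237 and 250 CPM in WT, 626, 662 and 654 CPM in CS16, and 590, 673 and 629 CPM in CS19. *MCM6*, another subunit, measured 147, 121 and 155 CPM in WT, 270.1, 339 and 277 CPM in CS16, and 302, 296 and 318 CPM in CS19. All 6 libraries of the clones lay above WT for both, with log2 fold changes of 1.31 ± 0.13 for *MCM4* and, for *MCM6*, 0.99 ± 0.14 (adjusted p = 3.18e-06 and 6.87e-05).

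The other helicase subunits divided. Of these, *MCM2* rose by 1.26 ± 0.22, *MCM5* by 1.04 ± 0.16 and *MCM7* by 0.59 ± 0.13 (adjusted p = 0.000394, 0.000141 and 0.00178). For *MCM2*, 23.6% of exon bases are shared with other genes. *MCM3*, by contrast, measured 509, 587 and 565 CPM in WT and 435 to 489 CPM in the clones, and fell by 0.35 on the log2 scale (adjusted p = 0.0242), a call that was lost in 5 alternative settings, among them those without WT-3, CS16-1 or CS16-3 (−0.32, −0.35 and −0.34). *PCNA*, the sliding clamp of the replicative polymerases, rose by 0.89 ± 0.24 (adjusted p = 0.00656), and by 0.59 without WT-2. The loading factor *CDC6* rose by 0.52 and *GMNN*, the inhibitor of the loading factor CDT1, by 0.69 (adjusted p = 0.0178 and 0.0242), and without WT-2 by 0.32 and 0.39. With WT-2, neither gene passed the test in CS16 or CS19 by itself. *CDT1* was at 25.9 and 27.1 CPM in WT-1 and WT-3 but at 84.2 CPM in WT-2, against 72.6 to 90.7 CPM in the clones. Its log2 fold change of 0.70 did not pass the test with WT-2 (adjusted p = 0.0951) and was 1.51 without it (adjusted p = 4.45e-07). *RRM2*, the small subunit of ribonucleotide reductase, had −0.25, which did not pass, and −0.38 without WT-2 (adjusted p = 0.00427). Between CS16 and CS19, 0 of the 11 replication genes changed in edgeR, beside 27.4% of all genes tested. Of the 11, 0 had an unadjusted p below 0.05 in edgeR and 0 changed in DESeq2. With the GC trend of each library removed 1, *CDT1*, was higher in CS16, beside 28.6% of all genes changed. In edgeR the log2 fold changes of the 11 genes lay between −0.09 and 0.13.

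Promoter letters differed between the roles. The letters were chosen because these genes are known targets of cell cycle regulators such as E2F factors, so this split is no independent result. RefSeq windows from 250 bases before to 50 bases after a start site (GRCh38.p14) were given for 46 of the 57 genes. They were searched on both strands for the E2F letters TTTCCCGC, TTTCGCGC, TTTGGCGC and TTTGCCGC, for the cell cycle homology region (CHR) letters TTTGAA and TTCGAA, for CCAAT, and for the E-box letters CAGGTG that SNAI1 can bind. E2F letters were in a window of 3.99% of 27305 genes, of 8 of 9 replication genes and of 2 of 16 mitosis genes. A match is a run of letters and was not tested for binding. The 150 bases before the start of *MCM6* and *PCNA*, both higher in the clones, are shown because they hold such letters, which are in capitals; in *MCM6* the matches TTTGGCGC and, on the other strand, TTTCGCGC overlap. The *MCM6* stretch is chr2:135876444-135876593 and that of *PCNA* is chr20:5126623-5126772, both read along the minus strand.
MCM6: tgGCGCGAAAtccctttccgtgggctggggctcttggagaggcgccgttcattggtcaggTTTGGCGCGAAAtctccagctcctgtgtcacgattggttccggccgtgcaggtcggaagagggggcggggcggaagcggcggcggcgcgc
PCNA: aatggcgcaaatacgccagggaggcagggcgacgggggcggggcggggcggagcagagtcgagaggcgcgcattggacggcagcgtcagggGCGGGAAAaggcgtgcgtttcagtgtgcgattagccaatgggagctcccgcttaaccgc

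Of the mitosis genes, 0 of 19 rose, 7 fell and 12 did not pass the test with WT-2, beside 31.1% of all genes higher and 32.6% lower, and their median log2 fold change was −0.24. The number lower was thus near the background. Among those higher in the clones, 0 had an unadjusted p below 0.05 in edgeR, and in DESeq2 0 changed and 1, *BIRC5*, had an unadjusted p below 0.05. With the GC trend of each library removed, 2 rose, *PLK1* and *BIRC5*, and 8 fell, beside 33.4% of all genes higher and 34.9% lower. Against WT, 4 fell in CS16 and 4 in CS19, beside 28.6% and 26.6% of all genes. These counts depended on WT-2, since without it 12 fell in CS16 and 12 in CS19, beside 36.3% and 34.8% of all genes. Without WT-2, 1 rose and 11 fell over both clones, beside 34.0% and 33.2% of all genes, with a median of −0.42 beside 0.04. The 7 that fell with WT-2 were *MKI67*, *CDC25B*, *TPX2*, *TOP2A*, *AURKA*, *CDC20* and *BUB1*.

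*MKI67* encodes the proliferation antigen Ki-67 that coats mitotic chromosomes. It measured 774, 1811 and 446 CPM in WT, 249, 188 and 204 CPM in CS16, and 248, 287 and 241 CPM in CS19. All 6 libraries of the clones lay below WT, and the WT libraries themselves differed by more than those of the clones. Its log2 fold change was −2.22 ± 0.34 (adjusted p = 0.000125) and −1.46 without WT-2 (adjusted p = 3.17e-05), which is inside the fold cut-off. *CDC25B*, the phosphatase that starts mitosis, measured 94.99, 255 and 96.5 CPM in WT, 47.2, 43.4 and 45.7 CPM in CS16, and 40.1, 52.9 and 45.01 CPM in CS19. It was likewise lower in all 6, by −1.83 ± 0.28 (adjusted p = 0.000132) and by −1.16 without WT-2 (adjusted p = 7.65e-07).

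*TPX2*, which targets Aurora A to the spindle, had a log2 fold change of −1.10 ± 0.18 (adjusted p = 0.000258), and *AURKA*, the gene of that kinase, −0.65 ± 0.21 (adjusted p = 0.0174). *AURKA* did not pass without WT-1 (−0.57) or without WT-3 (−0.38). *TOP2A*, which untangles sister chromatids, fell by 0.68 on the log2 scale (adjusted p = 0.0139) and did not pass without WT-3 (−0.52). It was lower in CS16, with 672, 723 and 634 CPM, than in CS19, with 936, 984 and 1054 CPM, and WT measured 1351, 898 and 1475 CPM. CS16 lay below the other groups, and CS19 overlapped WT through WT-2. The anaphase activator *CDC20* fell by 0.60 (adjusted p = 0.00373), a call that was lost with the GC trend of each library removed (−0.31), and the checkpoint kinase *BUB1* by 0.37, with an adjusted p of 0.0377 that passed the threshold by little. The call of *BUB1* was lost on leaving out any library other than WT-2, with values between −0.38 and −0.23. *PLK1*, a mitotic kinase, had a log2 fold change of 0.21 with WT-2 (adjusted p = 0.408) and 0.60 without it (adjusted p = 0.00164). *AURKB*, *BIRC5*, *BUB1B*, *CCNB2*, *CDC25C*, *CENPA* and *MAD2L1* did not pass the test with or without WT-2. The spindle motor genes *KIF11* and *CENPE* passed only without it, at −0.40 and −0.45.

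For *CDK1*, the kinase that drives mitosis, the call depended on WT-2. It measured 296 and 354 CPM in WT-1 and WT-3 and 86.1 CPM in WT-2, against 237 to 298 CPM in the clones. Its log2 fold change was −0.02 with WT-2 (adjusted p = 0.958) and −0.42 without it (adjusted p = 0.00547). *CCNB1*, the cyclin it binds in mitosis, had −0.27 with WT-2 (adjusted p = 0.401) and −0.58 without it (adjusted p = 0.0268).

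CHR letters were in a window of 19.5% of all 27305 genes, of 13 of 16 mitosis genes and of 1 of 9 replication genes. CCAAT was in a window of 39.7% of all genes and of 71.7% of the 46 cell cycle genes, and the E-box letters in 24.1% of all genes and in 17.4% of the 46, which are 8 genes. No window was used for 11 of the 57 genes, namely *CCND1*, *CCND2*, *CCNE2*, *CDK2*, *E2F5*, *E2F8*, *MCM4*, *MCM5*, *AURKA*, *BIRC5* and *TPX2*. The 150 bases before the start of *MKI67* (chr10:128126424-128126573, minus strand), *CDK1* (chr10:60778328-60778477, plus strand) and *CCNB2* (chr15:59104996-59105145, plus strand) are shown with their CHR letters in capitals. All 3 hold TTTGAA, while *MKI67* was lower in the clones and *CCNB2* did not pass the test (0.16). The *CDK1* stretch also holds the E2F letters TTTCGCGC, left in small letters here. *MCM6*, shown above for its E2F letters, is the 1 replication gene with CHR letters in its window.
MKI67: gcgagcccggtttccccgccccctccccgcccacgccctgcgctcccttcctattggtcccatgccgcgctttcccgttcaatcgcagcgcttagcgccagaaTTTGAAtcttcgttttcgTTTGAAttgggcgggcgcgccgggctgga
CDK1: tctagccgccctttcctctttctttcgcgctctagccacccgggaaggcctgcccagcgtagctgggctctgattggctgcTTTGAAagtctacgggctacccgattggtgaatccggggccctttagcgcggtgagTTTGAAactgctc
CCNB2: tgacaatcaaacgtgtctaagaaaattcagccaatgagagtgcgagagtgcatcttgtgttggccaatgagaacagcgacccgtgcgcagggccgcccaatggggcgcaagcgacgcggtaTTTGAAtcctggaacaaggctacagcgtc

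Between CS16 and CS19, *CCND1*, *CDK6* and *CCND2* had the largest log2 fold changes of the 56 genes. The 13 other changed genes had log2 fold changes between −0.79 and 0.57. In the fit that WT shared, *CCND1*, *CCND2*, *CDK6* and *CDKN1B* were called, and the calls of the 12 remaining genes (*CCNB1*, *CCNB2*, *CCNE1*, *CDC25A*, *CDC25C*, *CDKN1A*, *CDKN2C*, *E2F2*, *E2F5*, *E2F8*, *RBL2* and *TOP2A*) were lost. The share of all genes called in that fit is not given here, so the loss is not read as particular to these genes. *CCNB1* was higher in CS16, with 360, 426 and 388 CPM, than in CS19, with 229, 269 and 292 CPM, and its log2 fold change was 0.57 ± 0.08 (adjusted p = 0.000164). Its relative *CCNB2* was lower in CS16 by 0.28 on the log2 scale (adjusted p = 0.00633). *CDC25C*, a phosphatase that acts on CDK1, was higher in CS16 by 0.44 ± 0.08 (adjusted p = 0.000905). *CCNE1*, *CDC25A*, *CDKN1A* and *E2F5* were also higher in CS16, and *E2F8*, *RBL2* and *TOP2A* higher in CS19. CS19-1 lay low for nearly all of these genes, as described above.

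**Figure D4:**
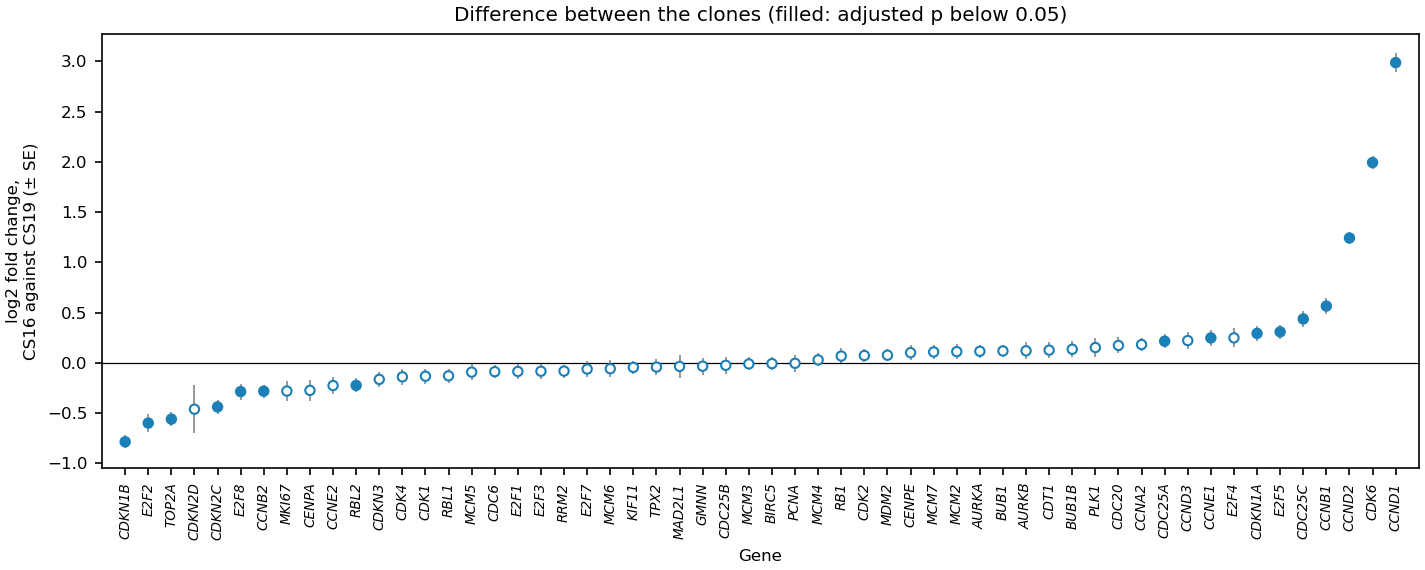
Log2 fold change of CS16 against CS19 with its standard error (bars) for the 56 genes tested, in order of size; filled points had an adjusted p below 0.05. *CCND1* at 2.99, *CDK6* at 1.99 and *CCND2* at 1.24 stand above the rest, and *CDKN1B* at −0.79 is lowest.

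Other genes of the same pathways were taken from lists. Of 19 further G1/S regulators, 7 rose and 3 fell over both clones, beside 31.1% of all genes higher and 32.6% lower, with a median log2 fold change of 0.39. Without WT-2, 7 rose and 6 fell, beside 34.0% and 33.2%, with a median of 0.09. Besides *CDKN2A* and *CDKN2B*, *SKP2*, which marks p27 for destruction, rose by 1.61 ± 0.20 (adjusted p = 2.24e-05). *CDKN1C*, which encodes the inhibitor p57, fell by 1.54 (adjusted p = 4.09e-05), *FOXM1*, a factor for G2 and M genes, by 0.81 (adjusted p = 0.0124) and *TFDP1*, a partner of E2F factors, by 0.35 (adjusted p = 0.028). *FOXM1* was at 206 CPM in WT-2 and at 92.4 and 102 CPM in the other WT libraries, and its log2 fold change without WT-2, −0.33, did not pass the test (adjusted p = 0.054).

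Of 41 further replication genes, 23 rose and 4 fell, beside 31.1% of all genes higher and 32.6% lower, with a median of 0.51. Without WT-2, 26 rose and 4 fell, beside 34.0% and 33.2%. *CDC7*, the kinase that fires origins, rose by 2.13 ± 0.26 and *GINS2* and *GINS3*, subunits of the active helicase, by 1.85 ± 0.14 and 1.68 ± 0.19 (adjusted p = 2.49e-05, 4.6e-07 and 1.05e-05). The thymidylate genes *TYMS* and *TK1* fell by 1.63 and 1.29 on the log2 scale, and *UHRF1*, which maintains DNA methylation, by 0.70 (adjusted p = 0.00244, 0.000214 and 0.0117). *TYMS* measured 64.5 CPM in WT-2 against 16.0 and 17.6 CPM in WT-1 and WT-3, and its fall without WT-2 was −0.64, and that of *UHRF1* −0.28.

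Of 48 further mitosis genes, 4 rose and 22 fell, beside 31.1% of all genes higher and 32.6% lower, with a median of −0.41. Without WT-2, 5 rose and 31 fell, beside 34.0% and 33.2%. The motility receptor gene *HMMR* and the spindle checkpoint kinase gene *TTK* rose by 1.63 ± 0.36 and 0.78 ± 0.28, and *KIF22* by 0.66 ± 0.13 (adjusted p = 0.00203, 0.0284 and 0.000736). *TTK* measured 37.0 CPM in WT-2 against 106.1 and 118.2 CPM in WT-1 and WT-3, and without WT-2 its log2 fold change was 0.42 (adjusted p = 0.0017). *HMMR* was higher in CS16, with 99.97 to 110.8 CPM, than in CS19, with 44.9 to 52.4 CPM. *MAD1L1* fell by 2.05, *SGO2*, a protector of sister chromatid cohesion, by 1.85 and *ANLN*, which builds the cleavage furrow, by 1.79 on the log2 scale (adjusted p = 0.000223, 5.27e-06 and 2.34e-06). *ANLN* measured 868, 536 and 952 CPM in WT against 206 to 263 CPM in the clones.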

How the data were processed

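Total RNA was depleted of ribosomal RNA, and paired-end reads were taken from strand-specific libraries. Per the labels and the submitters' processing notes, the authors used Trimmomatic 0.36 for trimming and STAR 2.7.2b for alignment to GRCh38, and deposited whole counts per gene from featureCounts (Subread 2.0.0, gencode release 38), with a mapping quality of at least 30 and without use of strand. Without molecular identifiers, copies could not be removed, so intervals and floors cover counting error only.

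The counts were analysed with edgeR 4.0.16 in R 4.3.3 (filterByExpr, TMM, quasi-likelihood test) in a fit for each of 4 comparisons, with standard errors from the log2 fold change and its F value. TPM used the exon lengths in the files, and GC content came from gencode exons on the same build. Alternatives were DESeq2 1.42.0, RLE and upper-quartile factors, no filter, at least 10 counts in at least 3 libraries, without the 100 most abundant genes, a block for replicate number, 1 fit of WT, CS16 and CS19 together, each library left out, and CPM in place of TPM for levels between genes. Removal of each library's GC trend was added after the data were seen. The steps were tested on simulated data.

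The 57 genes and all lists were chosen with earlier results of these data known. Values in every library are given for the D cyclins, for members past a log2 fold change of 2 in any comparison (or of 1 between the clones) with an adjusted p below 0.05, and for the 2 members of each role with the smallest p in the libraries labelled *SNAI1*-KO against WT. Of each list other than the marker lists the 3 largest rises and falls are named. *CDKN1B*, *MCM3*, *CDT1*, *TOP2A*, *CDK1* and *CCNB1* were given in more detail after their values were seen. Promoters came from RefSeq on GRCh38.p14. A planned description of the D cyclin proteins was not run. A further gene list of the plan is not reported here.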

Additional observations from a re-analysis of the deposited data

Results flagged for a closer look

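Among the 6 libraries labelled *SNAI1*-KO, 1 of 57 genes had a library apart from the others by Dixon's criterion, *BUB1* in CS19-1 at 218 CPM. Its gap to the next library was 0.71 of the group's range, and chance alone gives such a mark in about 1 of 20 groups.

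The log2 fold changes of CS16 against CS19 that passed edgeR's quasi-likelihood test were those of *CCND1* (2.99), *CDK6* (1.99), *CCND2* (1.24), *CCNB1* (0.57), *CDC25C* (0.44), *E2F5* (0.31), *CDKN1A* (0.29), *CCNE1* (0.25) and *CDC25A* (0.22), which were higher in CS16. Higher in CS19 were *CDKN1B* (−0.79), *E2F2* (−0.60), *TOP2A* (−0.56), *CDKN2C* (−0.44), *E2F8* (−0.29), *CCNB2* (−0.28) and *RBL2* (−0.22). These calls come from a fit of the clones alone, in which 27.4% of all genes tested changed. Where WT shared the fit, *CCND1*, *CCND2*, *CDK6* and *CDKN1B* changed.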

How the results depend on the processing

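None of the cell cycle genes called in a comparison changed direction in that comparison under the alternatives run, whereas some that did not pass the test did, such as *CCNB2* (0.16, and −0.03 without WT-2). In CPM in place of TPM, *CCND1* and *CCND2* made up 30.9% and 55.5% of the D cyclin level in CS16, and *CDK6* led *CDK4* in WT. Leaving out each library in turn, the number of cell cycle genes changed ranged from 33 to 46 over both clones, from 22 to 48 in CS16, from 24 to 49 in CS19 and from 12 to 19 between the clones. The highest numbers in the comparisons with WT were those without WT-2, beside 67.2%, 72.7% and 71.2% of all genes. With every library these shares were 63.7%, 55.6% and 52.9%, and 27.4% between the clones. For the other libraries left out the shares are not given, so the ranges are not read as particular to the cell cycle genes. Removing each library's GC trend gave 42, 38, 40 and 22, beside 68.3%, 65.0%, 62.7% and 28.6% of all genes. The shared fit gave 4 between the clones in place of 16, in a fit where the WT libraries also set the spread. Differentially expressed genes between the clones were 2 with DESeq2 and with RLE factors, and 1 to 2 on leaving out each library, because *CDK6* crossed the fold cut-off. The difference of *CCND3* between the clones ranged from 0.17 to 0.29 on leaving out each library and passed without CS16 replicate 1 (0.29), and was 0.31 with the GC trend removed (adjusted p = 0.015). The cause of these shifts was not tested. Without the 100 most abundant genes no count is given, since that setting removes some of the 57.

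With the replicate number as a block, *BUB1* and *MCM3* lost their calls over both clones, and *CDK4*, *E2F8*, *PCNA* and *RBL2* theirs in CS16. *MCM7* lost its call in CS19, and *CCNE1*, *CDC25A*, *CDKN1A*, *E2F8* and *RBL2* theirs between the clones. The share of all genes changed under the block is not given here. The deviations of same-numbered libraries from their group means had correlations of −0.21 to 0.19. Since WT-2 stood apart from the other WT libraries, these values cannot tell whether same-numbered libraries were handled together. *BUB1* lost its call against WT in 12 settings, and *RBL2* its call between the clones in 9. *CCNE1* and *CDC25A* each lost theirs between the clones in 7. In DESeq2, which used every gene with a count, the median log2 fold change of all genes in CS16 against WT was −0.14, in place of −0.03.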
